A study of Mus musculus with 6 samples.

Results

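The hair shaft keratins are the intermediate filament proteins that fill the cells of the growing hair, and 10 of their genes were examined here: the type I genes Krt31, Krt32, Krt33a, Krt33b, Krt34, Krt35 and Krt36 and the type II genes Krt81, Krt85 and Krt86. They were taken by symbol from a table of 23518 genes, and all 10 were present in it. The table comes from RNA sequencing of mouse ear skin 1 day after imiquimod, which activates Toll-like receptors and as a cream causes psoriasis-like inflammation in mice. It compares 3 ear skin samples from HdR mice with 3 from wild-type (WT) mice. HdR is the label of mice whose HOIL1 protein, a subunit of the linear ubiquitin chain assembly complex encoded by Rbck1, lacks its RING1 domain. All mice of both genotypes received 10 mg of a cream with 5% imiquimod, so skin without imiquimod is not part of the comparison. The labels name no age, sex or strain, nor the cells that carry the altered protein.

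Every one of the 10 genes was lower in HdR skin than in WT skin. Their summed coverage averaged 18.4 ± 10.6 bases per Mb in HdR libraries and 123 ± 16.0 in WT libraries (SD, n = 3 each). The fall was not the same for all members: the WT mean exceeded the HdR mean 17.9-fold for Krt35 and 2.94-fold for Krt34, and HdR replicate 1 lacked most of the coverage of 7 members while its Krt32, Krt35 and Krt36 stood at 0.845 to 1.95 times the mean of the other HdR libraries.

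A hair keratin filament is built from pairs of a type I (acidic) and a type II (basic) chain, and the filaments are embedded in a matrix of keratin-associated proteins joined to them by disulfide bonds. In the human hair follicle the genes switch on in sequence as cells move up from the bulb. KRT35 and KRT85 appear first, in the matrix and the early cortex and cuticle, KRT32 marks the cuticle, and KRT31, KRT33A, KRT33B, KRT34, KRT81 and KRT86 follow in the cortex. The family is made in growing (anagen) follicles, and transcription factors such as HOXC13, FOXN1 and LEF1 act on its genes.

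The sequences upstream of these genes are shown because neighbouring members share elements in them. All type I members lie on chromosome 11 between positions 100011195 and 100105626 of GRCm38, on the minus strand, and Krt81 and Krt86 lie on chromosome 15 between 101459061 and 101479986, on opposite strands. RefSeq (GRCm38.p6) promoter sequences were matched for 5 members. The 250 bases before each annotated start follow, 5′ to 3′, with capitals marking 3 motifs searched on both strands. These are the TATA box (TATAAA), the LEF1/TCF motif (CTTTGAA, with the variants CTTTGAT, likewise CTTTGTA, likewise CTTTGTT) and the HOXC13 motif (TTTATNAA, TTTATNAG, TTTATNGA, TTTATNGG, TTAATNAA, TTAATNAG, TTAATNGA or TTAATNGG).

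Krt31 (chr11:100050552-100050801, minus strand): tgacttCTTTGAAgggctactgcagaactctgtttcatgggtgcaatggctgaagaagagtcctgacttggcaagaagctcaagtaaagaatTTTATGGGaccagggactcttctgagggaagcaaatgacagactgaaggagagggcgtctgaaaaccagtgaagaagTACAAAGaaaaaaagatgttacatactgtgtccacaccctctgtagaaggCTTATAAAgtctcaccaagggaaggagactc
Krt32 (chr11:100088270-100088519, minus strand): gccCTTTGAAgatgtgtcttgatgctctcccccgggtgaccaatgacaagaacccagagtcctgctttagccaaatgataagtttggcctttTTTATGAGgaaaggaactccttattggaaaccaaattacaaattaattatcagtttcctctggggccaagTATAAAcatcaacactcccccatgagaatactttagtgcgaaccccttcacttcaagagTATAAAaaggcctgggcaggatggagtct
Krt33b (chr11:100029869-100030118, minus strand): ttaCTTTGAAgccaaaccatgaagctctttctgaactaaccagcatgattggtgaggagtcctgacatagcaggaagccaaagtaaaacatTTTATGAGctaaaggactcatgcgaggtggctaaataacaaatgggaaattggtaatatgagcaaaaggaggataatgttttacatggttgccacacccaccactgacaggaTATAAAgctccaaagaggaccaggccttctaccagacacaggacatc
Krt34 (chr11:100041555-100041804, minus strand): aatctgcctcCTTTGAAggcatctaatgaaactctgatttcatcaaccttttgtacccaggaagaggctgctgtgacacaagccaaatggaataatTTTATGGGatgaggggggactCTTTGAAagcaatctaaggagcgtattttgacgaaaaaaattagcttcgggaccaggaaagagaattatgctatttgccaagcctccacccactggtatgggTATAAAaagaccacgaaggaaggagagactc
Krt36 (chr11:100105627-100105876, minus strand): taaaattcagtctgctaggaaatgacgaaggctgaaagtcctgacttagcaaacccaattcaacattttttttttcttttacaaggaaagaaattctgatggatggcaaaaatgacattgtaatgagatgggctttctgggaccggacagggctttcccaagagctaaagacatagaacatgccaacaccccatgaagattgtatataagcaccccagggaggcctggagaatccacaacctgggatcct

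Krt31, Krt32, Krt33b and Krt34 each held all 3 motifs, and Krt36 held none of them as spelled here. The Krt36 sequence does hold tatataag, but TATA boxes of a spelling other than TATAAA were not searched. Among 32544 promoter windows of the same length, 12.3% held TATAAA, 14.9% a LEF1/TCF motif and 17.2% a HOXC13 motif. Each of the 4 held 1 or more matches of each motif at like distances from the start. A CTTTGAA began at position -244 in Krt31, -247 in Krt32, -247 in Krt33b and -240 in Krt34, which had another at -133, and Krt31 had a LEF1/TCF match on the opposite strand (TACAAAG) at -81. The HOXC13 match TTTATGGG began at -158 in Krt31 and -154 in Krt34, and TTTATGAG at -158 in Krt32 and -159 in Krt33b. A TATAAA began between -47 and -29 in these 4 genes, and Krt32 had another at -88. In Krt31 a further HOXC13 match on the opposite strand overlapped the TATA box. A match of letters is a description and was not tested for binding.

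The deposited quantity is treated here as coverage, the sum of aligned bases over a gene. Totals ran from 4433 to 5264 Mb in HdR libraries and from 5038 to 5966 Mb in WT libraries, and 1 base per Mb of scaled coverage stands for 11.7 to 23.6 read pairs if a pair adds 300 bases. As a check of the labels, Rbck1 was at 18.9 ± 5.50 bases per Mb in HdR and 61.9 ± 6.02 in WT libraries (SD, n = 3 each), a sum that cannot show which exons were lost. Over the whole table limma called 4605 of 15049 genes (30.6%), 2701 lower (17.9%) and 1904 higher (12.7%) in HdR, with a median log2 change of -0.13 over all genes tested. Of the calls 41.3% were higher, against 17.6% with total scaling (median -0.41) and 52.5% with quantile normalisation (median -0.02). Without WT replicate 1, 427 genes were called. A length trend and a ribosomal RNA share followed the genotype: long transcripts had relatively less coverage in HdR libraries (slopes per doubling of length of -0.272 to -0.0805 in HdR and 0.0404 to 0.247 in WT), and the ribosomal precursor Rn45s took 0.368% to 1.54% of bases in HdR and 0.102% to 0.119% in WT. Calls changed by removing the length trend are given beside the results, by name or by count. The part of the ribosomal RNA share was not tested. Krt14, a keratin of the basal epidermis, marked the tissue as skin at 2193 to 2789 bases per Mb in HdR and 3558 to 4530 in WT.

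**Figure D1:**
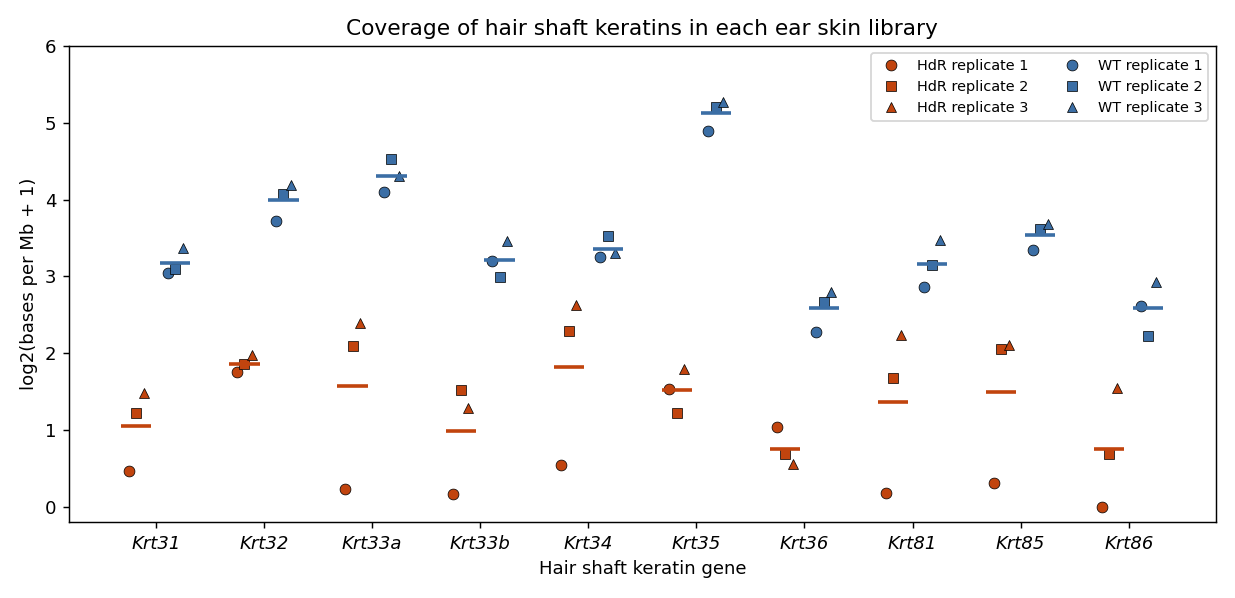
Coverage of the 10 hair shaft keratins as log2(bases per Mb + 1) in 3 HdR (left of each pair) and 3 WT (right) ear skin libraries, with bars at the mean of each genotype. Every HdR value lies below every WT value, and HdR replicate 1 (circles) is far below the other HdR libraries except for Krt32, Krt35 and Krt36.

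Krt35, the type I partner of the earliest stage of shaft keratin expression in human follicles, fell furthest on this log scale. It had 1.91, 1.33 and 2.48 bases per Mb in HdR replicates 1, 2 and 3, against 28.7, 35.8 and 37.7 in WT replicates 1, 2 and 3. The HdR libraries were alike and far below the lowest WT library. Its log2 change, the difference HdR minus WT of log2(bases per Mb + 1), as for all changes here, was -3.60 (95% confidence interval -4.08 to -3.13; limma, Benjamini-Hochberg adjusted p = 0.000303). This scale understates the change of genes at a few bases per Mb. With voom, which works on another scale, Krt86 (-4.43), Krt33a (-4.16) and Krt33b (-4.10) changed further than Krt35 (-3.86). Krt85, the type II gene expressed at the same early stage in human follicles, had 0.235, 3.15 and 3.32 bases per Mb in HdR and 9.13, 11.3 and 11.8 in WT. Here HdR replicate 1 stood apart from the other HdR libraries, and its value corresponds to 3.84 read pairs. The log2 change of Krt85 was -2.06 (-3.04 to -1.07; limma adjusted p = 0.0146).

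Krt32, a cuticle keratin, had 2.36, 2.65 and 2.95 bases per Mb in HdR and 12.2, 15.9 and 17.3 in WT, with a log2 change of -2.13 (-2.57 to -1.69; limma adjusted p = 0.00149). Its HdR libraries had the smallest relative spread of all members, with a coefficient of variation of 11.0%. Krt36, whose human counterpart is also found in the nail, was low throughout, at 1.05, 0.610 and 0.468 in HdR and 3.86, 5.37 and 5.98 in WT (log2 change -1.83, limma adjusted p = 0.00335). It was the single member whose highest HdR value was in replicate 1.

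The type I cortex keratins made up the bulk of the remaining coverage. Krt33a had 0.178, 3.25 and 4.27 bases per Mb in HdR and 16.1, 22.0 and 18.8 in WT (log2 change -2.73, -3.83 to -1.64; limma adjusted p = 0.0104). Krt33b had 0.121, 1.87 and 1.44 in HdR and 8.18, 6.99 and 9.98 in WT (log2 change -2.23, limma adjusted p = 0.00700). Krt31 had 0.378, 1.33 and 1.80 in HdR and 7.26, 7.58 and 9.31 in WT (log2 change -2.12, limma adjusted p = 0.00397). In all of these the genotypes were separate and HdR replicate 1 was lowest. Krt34 was the member closest to WT, at 0.455, 3.89 and 5.17 in HdR and 8.53, 10.6 and 8.84 in WT. Its log2 change was -1.54 (-2.59 to -0.49; limma adjusted p = 0.0369), and -0.90 without HdR replicate 1 (limma adjusted p = 0.0365). The Krt34 call was lost in 7 of 16 alternative analyses, where the limma adjusted p reached 0.0924.

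The type II cortex keratins fell likewise. Krt81 had 0.130, 2.19 and 3.73 bases per Mb in HdR and 6.24, 7.87 and 10.2 in WT (log2 change -1.80, -2.84 to -0.76; limma adjusted p = 0.0231). Krt86 was listed at 0 in HdR replicate 1 and stood at 0.617 and 1.93 in the other HdR libraries, against 5.13, 3.69 and 6.63 in WT (log2 change -1.84, -2.67 to -1.01; limma adjusted p = 0.0131). HdR replicate 1 was again the lowest library for both. The Krt81 call was lost in 4 alternatives (largest limma adjusted p 0.0669).

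Thus 10 of 10 members passed, with a median log2 change of -2.09, against 17.9% of all genes tested that were called lower. The genotypes did not overlap for any of the 10, where 30.7% of all genes tested had every HdR library below every WT library. All 10 met the filter on low values through their WT libraries, which alone would admit them, and without any filter 8 of 10 passed, Krt34 and Krt81 not passing. Without WT replicate 1, 6 passed, with Krt34, Krt81, Krt85 and Krt86 not passing, and the median was -2.15. After removal of the length trend all 9 members with an annotated transcript length in GENCODE M21 passed, with a median of -2.40, and Krt35 changed by -3.64. Krt85 had no annotated length. In bulk tissue fewer cells of a type and less RNA per cell cannot be told apart.

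**Figure D2:**
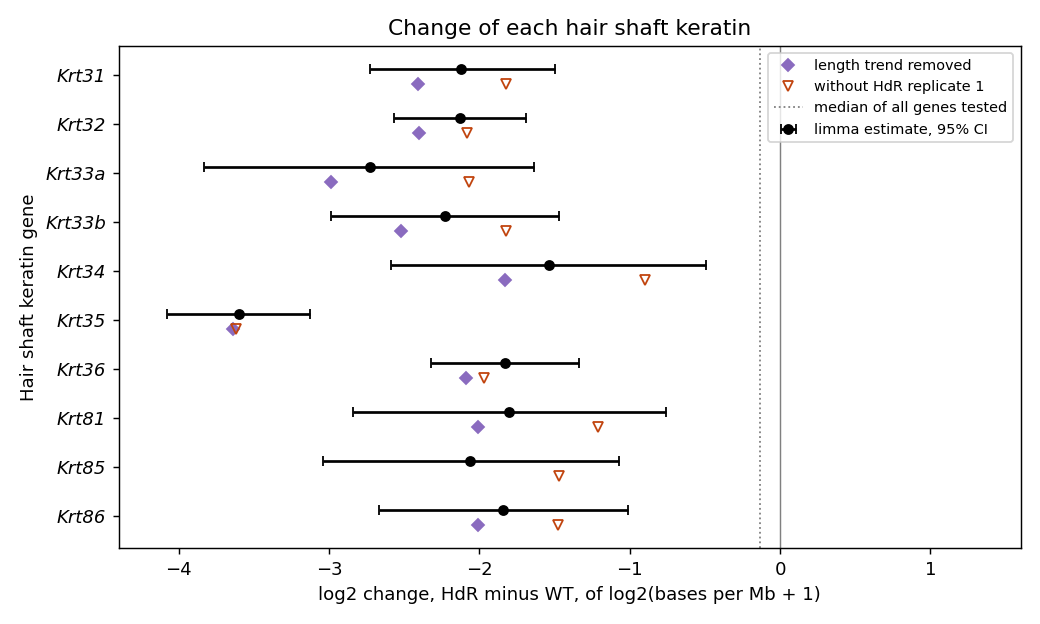
Log2 change of each hair shaft keratin, HdR minus WT, with its 95% confidence interval from limma (black), the value with the length trend removed (diamonds, not for Krt85) and the value without HdR replicate 1 (open triangles). All of them lie below the median of all genes tested, -0.13 (dotted), and the limma values run from -3.60 for Krt35 to -1.54 for Krt34.

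Near-identical paralogs could exchange reads. Of the 150-base windows of the longest transcript, 16.6% of Krt81 occurred unchanged in Krt86 or in Krt87, another hair keratin gene, and 14.4% of Krt86 in Krt81. Krt34 shared 10.0% with Krt31 or Krt33a, Krt33a shared 9.52% and Krt31 shared 6.35% within the same trio. Krt32, Krt33b, Krt35 and Krt36 shared no such window with any other gene. No source used here says how reads that fit several genes were assigned, so the split within these pairs and trios is uncertain, while the members with no shared window fell too.

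Levels of different genes were compared per kb of transcript for the 9 members with a length. In WT skin Krt35 led with 14.2 ± 1.98 bases per Mb per kb, followed by Krt33a with 11.3 ± 1.76 and Krt32 with 9.07 ± 1.58 (SD, n = 3). Then came Krt34, Krt33b, Krt31, Krt81, Krt36 and, last, Krt86 with 2.62 ± 0.747. Neighbours in this order overlapped between libraries except at the step between Krt32 and Krt34 (5.79 ± 0.679). The order in HdR skin was led by Krt34 with 1.97 ± 1.52, Krt32 with 1.59 ± 0.176 and Krt33a with 1.53 ± 1.27, and Krt35, which led in WT, had 0.796 ± 0.239. These HdR levels overlapped widely.

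The make-up of the family was uneven across HdR libraries and steady across WT libraries. Krt35 took 22.0%, 5.36% and 7.45% of the coverage per kb of the 9 genes in HdR replicates 1, 2 and 3, against 23.0%, 23.8% and 23.4% in WT. Krt34 took 7.82%, 23.3% and 23.1% in HdR and 10.1%, 10.5% and 8.15% in WT. HdR replicates 2 and 3 thus shared a low proportion of Krt35 and a high proportion of Krt34. Replicate 1 did not share this, as its proportions of Krt35 (22.0%) and Krt34 (7.82%) were near those in WT. Krt32, Krt35 and Krt36, a trio picked out after the values of replicate 1 were seen, made up 78.6% of its coverage. The trio made up 24.2% and 22.2% in the other HdR libraries and 41.4% to 44.2% in WT. Within the trio, Krt32 (39.2%) and Krt36 (17.35%) had larger shares in replicate 1 than in any other library. Their mean WT shares were 14.9% and 4.95%. The share of Krt35 in replicate 1 did not exceed its WT shares.

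**Figure D3:**
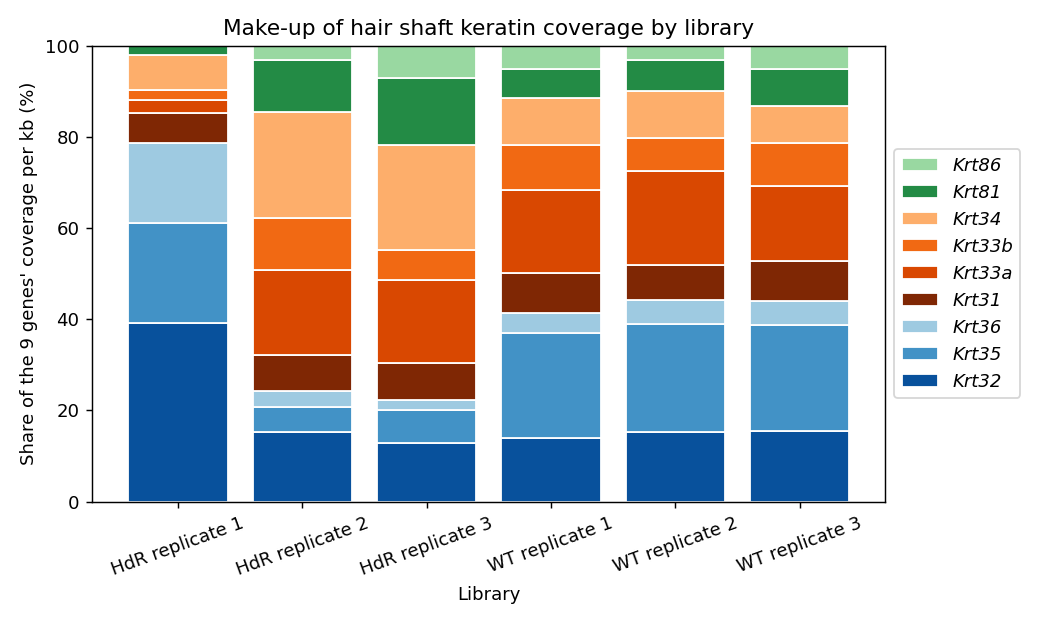
Share of each of 9 hair shaft keratins (Krt85 is left out for want of a length) in their joint coverage per kb, by library, HdR on the left and WT on the right. Blues are Krt32, Krt35 and Krt36, oranges and browns the other type I genes and greens the type II genes. The WT bars are nearly the same, whereas the blue part spans 78.6% in HdR replicate 1 and 22.2% in HdR replicate 3.

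In bases per Mb, the sum of the 10 genes was 6.82, 20.9 and 27.6 in HdR and 105, 127 and 136 in WT. The sum of Krt32, Krt35 and Krt36 was nearly equal in the HdR libraries, at 5.32, 4.59 and 5.89, against 44.7, 57.0 and 60.9 in WT. The other 7 genes averaged 13.2 ± 10.4 in HdR, with 16.3 and 21.7 in replicates 2 and 3, and 68.7 ± 7.56 in WT. This split follows from the way the trio was picked, so it is a description only. For those 7 genes replicate 1 reached from 0 (Krt86) to 0.242 (Krt31) of the mean of replicates 2 and 3. For Krt32, Krt35 and Krt36 the same ratio was 0.845, 1.00 and 1.95. That of Krt36 rests on 17.1, 7.14 and 6.79 read pairs in HdR replicates 1, 2 and 3. The ratio of type I to type II coverage was 17.7, 2.50 and 2.07 in HdR libraries and 4.13, 4.56 and 3.77 in WT libraries, where the 17.7 rests on a type II sum of 0.366 bases per Mb. Without HdR replicate 1 the mean ratio in HdR was 2.29.

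Other structural genes of the shaft moved the same way. Of 6 further hair keratin genes, with a median log2 change of -1.47, 5 fell: Krt87 (-2.22), Krt83 (-1.76), the cuticle keratin Krt82 (-1.57), Krt40 (-1.38) and Krt39 (-0.73). Krt84, a hair keratin also known from the human tongue, had 2.49, 4.14 and 1.16 bases per Mb in HdR and 4.45, 5.64 and 5.44 in WT and did not pass (limma adjusted p = 0.0554, and 0.0279 with the replicate block). Of 53 keratin-associated protein genes (symbols starting with Krtap) 36 were tested, and 33 of them fell, with a median of -1.38. With the length trend removed all 36 fell. The filter admitted 8 of the 36, and 3 of the 6 further hair keratins, through WT libraries alone, since their HdR values were all under 1 base per Mb, and without a filter 29 of all 53 were called lower, with a median of -1.04. Of 12 other genes of the growing shaft 9 fell, with a median of -1.66, and Msx2, a transcription factor, is 1 of the 9 and is counted again among the regulators. Among them Padi3, an enzyme that modifies shaft proteins, had 0.611, 1.27 and 0.861 bases per Mb in HdR and 8.16, 7.69 and 12.1 in WT (log2 change -2.42, limma adjusted p = 0.00161). S100a3, a calcium-binding protein of the hair cuticle, changed by -2.75, Vsig8 by -2.13 and the desmosomal cadherin gene Dsg4 by -2.23. With the length trend removed 8 of the 12 other shaft genes fell, Hephl1 losing its call (limma adjusted p = 0.141).

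The keratins of the inner root sheath, which moulds the growing shaft, and of the companion layer around it are a further keratin family of the follicle. The deposited data hold 9 of them, of which 8 were tested and 8 fell, with a median log2 change of -3.38 against -2.09 for the shaft keratins. Their sum was 25.6, 78.0 and 48.9 bases per Mb in HdR and 413, 552 and 647 in WT, so HdR replicate 1 was the lowest library in this family as well. Krt28 and Krt73 had the smallest p with log2 changes of -3.46 and -3.86, Krt75 of the companion layer changed by -2.12 and Krt25 by -3.29. The difference between the families was not tested. The log2(value + 1) scale shrinks changes of low values more, and the shaft keratins had the lower sums, so the medians are not on equal terms. Krt74 was below the filter.

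Regulators of the shaft keratin genes had smaller changes, a difference that was not tested. Of 18 tested 8 fell and 0 rose, with a median log2 change of -0.64, where 17.9% of all genes tested were called lower. Hoxc13, a homeodomain factor that activates hair keratin genes, had 2.03, 1.95 and 2.18 bases per Mb in HdR and 5.74, 6.36 and 8.72 in WT (log2 change -1.36, limma adjusted p = 0.00615). Msx2, a homeodomain factor of the hair matrix, was at 3.05, 2.61 and 2.38 in HdR and 6.95, 10.0 and 8.48 in WT (log2 change -1.36, limma adjusted p = 0.00597). The beta-catenin gene Ctnnb1 changed by -1.10 and the vitamin D receptor gene Vdr by -1.06. Picked out after their values were seen, Foxn1 was at 1.63, 2.07 and 0.843 in HdR and 3.65, 2.11 and 5.96 in WT (limma adjusted p = 0.0531), and Lef1 at 1.12, 2.98 and 1.73 in HdR and 1.42, 1.59 and 1.95 in WT (log2 change 0.11, limma adjusted p = 0.759). After removal of the length trend 4 regulators fell, as Dlx3, Trps1, Bmpr1a and Smad4 lost their calls (limma adjusted p = 0.0524, 0.792, 0.0745 and 0.0914). Leaving out a library gave 2 (WT replicate 1), 4 (WT replicate 3), 5 (HdR replicate 1, and also HdR replicate 2), 6 (HdR replicate 3) or 11 (WT replicate 2).

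Not all genes of the follicle or epidermis followed. Of 12 outer root sheath and stem cell markers 4 fell and 0 rose, with a median of -0.13. Lgr5, a stem cell receptor gene, changed by -1.50, Lhx2 by -1.20, Lgr6 by -1.07 and Lrig1 by -0.68. With the length trend removed 2 fell and 1 rose, as Lgr6 and Lrig1 lost their calls (limma adjusted p = 0.119 and 0.262). The 1 that rose was Fst, at 0.60 (limma adjusted p = 0.0371), against 0.50 without that correction, where it passed with the replicate block (limma adjusted p = 0.0413) and otherwise not (0.0561). Krt17, a keratin of the outer root sheath picked out after its values were seen, stood at 370, 495 and 328 bases per Mb in HdR and 385, 350 and 395 in WT (log2 change 0.06, limma adjusted p = 0.837). Of 8 keratins of the epidermis between follicles 3 fell and 0 rose (median -0.64), namely Krt1 (-1.03), Krt14 (-0.71) and Krt78 (-0.95), while Krt80 (-0.97) did not pass. Of all genes tested 17.9% were called lower. The summed epidermal keratins spanned 9598 to 11490 bases per Mb in HdR and 13550 to 15660 in WT. For 6 of the 8 every HdR library lay below every WT library, as for 30.7% of all genes tested. With the replicate block 5 fell, Krt80 (limma adjusted p = 0.00611) and Krt2 (0.0156) being added. With the length trend removed Krt14 alone of these keratins was called (limma adjusted p = 0.0175). Among 11 dermal papilla markers 4 fell and 1 rose: Sox18 changed by -1.35, Hhip by -0.97, Corin by -0.69, Wif1 by -0.54 and Fgf7 by 0.70. With the length trend removed 2 fell, Hhip and Corin losing their calls (limma adjusted p = 0.258 and 0.209).

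**Figure D4:**
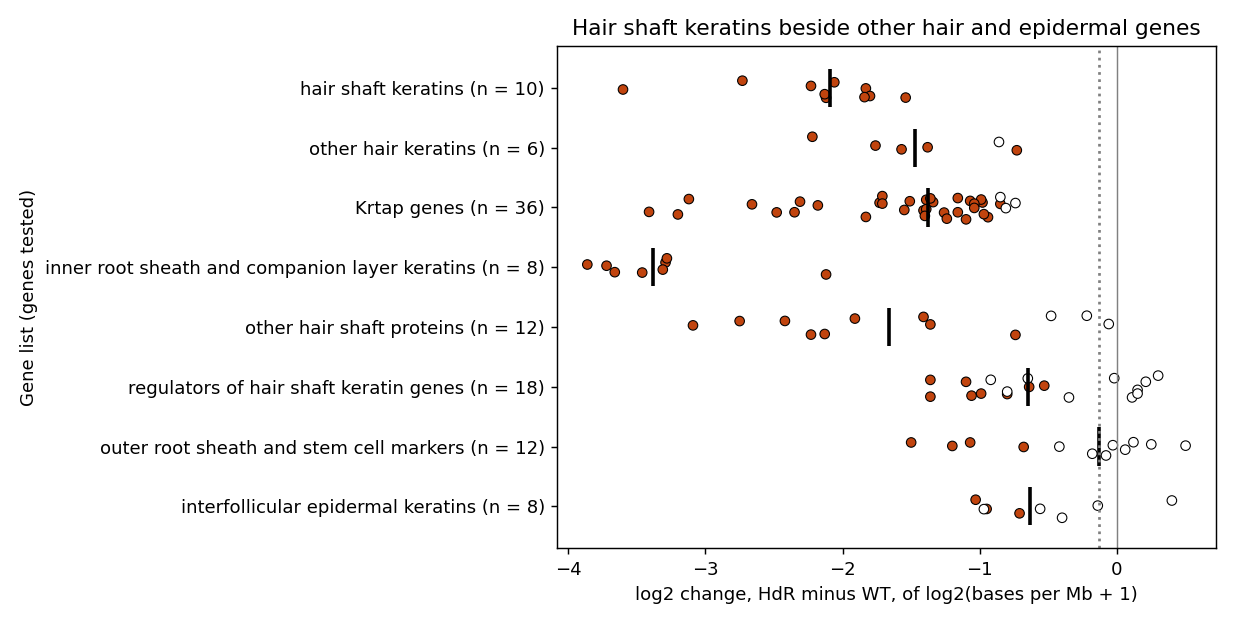
Log2 change, HdR minus WT, of every tested gene in 8 lists of hair and epidermal genes. Filled points passed limma at an adjusted p under 0.05, open points did not, bars are list medians and the dotted line is the median of all genes tested. The hair shaft keratins (median -2.09) and inner root sheath keratins (-3.38) lie far left of the outer root sheath and stem cell markers (-0.13).

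Dividing cells and pigment cells of the hair bulb accompany shaft growth, but bulk skin does not show which cells the RNA below came from. Of 12 proliferation genes 8 fell and 0 rose (median -0.96), led by Mki67 at 29.4, 15.9 and 12.1 bases per Mb in HdR and 112, 71.5 and 119 in WT (log2 change -2.40, limma adjusted p = 0.00442). Top2a changed by -2.07, Ccnb1 by -1.65 and Bub1 by -1.35. With the length trend removed 7 proliferation genes fell, Mcm2 losing its call (limma adjusted p = 0.103). Pcna, picked out after its values were seen, lay higher in HdR without overlap, at 275, 353 and 248 against 199, 245 and 178 in WT (log2 change 0.49, limma adjusted p = 0.0866, and 0.0124 with the replicate block). Of 8 pigment cell markers tested 3 fell and 0 rose (median -0.53), namely Tyrp1 (-1.07), Tyr (-1.26) and Slc45a2 (-1.10), while Pmel (-0.68) did not pass (limma adjusted p = 0.0712, 0.0125 with the replicate block and 0.0474 with the length trend removed, where Tyr in turn had 0.0536). Slc45a2 was under 1 base per Mb in every HdR library, so the filter admitted it through WT libraries alone. Without a filter it passed too (limma adjusted p = 0.0252). The share called lower among all genes tested was 17.9%.

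Markers of other tissues also differed between the same libraries, and their part in the fall of the hair keratins was not tested. For comparison, 12.7% of all genes tested were called higher and 17.9% lower. Summed adipocyte markers spanned 2192 to 3048 bases per Mb in HdR and 702 to 820 in WT, with 6 of 8 higher, among them Fabp4 (2.23), Adipoq (1.74), Retn (1.65) and Cidec (1.27). Plin1 (-0.24) and Pparg (-0.16) did not rise and did not pass. Neutrophil markers spanned 701 to 3188 in HdR and 145 to 200 in WT, with 5 of 7 higher, led by Retnlg (2.62), S100a9 (2.99), S100a8 (3.07) and Mmp8 (1.75). S100a9 and S100a8 supplied most of these sums, with HdR means of 878 and 690. Mmp9 (0.24) and Csf3r (0.20) did not pass, and Ly6g was below the filter. Macrophage markers spanned 2245 to 2621 in HdR and 704 to 1299 in WT, with 7 of 8 higher, among them Cd163 (1.43), Cd14 (1.08), Lyz2 (1.67) and C1qa (1.00). Skeletal muscle markers spanned 4516 to 5680 in HdR and 2249 to 3124 in WT, with 5 of 8 higher, among them Pvalb (1.44), Tnni2 (1.28), Mylpf (1.23) and Tnnt3 (1.12). Fibroblast markers overlapped, at 6305 to 7822 in HdR and 5631 to 7995 in WT, with 2 lower, Col1a1 (-1.90) and Col1a2 (-0.94), 1 higher, Dpt (0.90), and Col3a1 (-1.22) not passing. Sebaceous gland sums overlapped as well, at 2240 to 2686 in HdR and 2393 to 2956 in WT, with Soat1 lower (-1.04) and Mc5r (-0.50), Elovl3 (0.56) and Scd1 (-0.44) not passing. Cartilage sums were 137 to 166 in HdR and 148 to 272 in WT, with Col11a1 (-1.03) and Col9a1 (-0.72) lower and Cnmd (-0.47) and Col2a1 (-0.71) not passing. Xist, the RNA of the inactive X chromosome, was at 216 to 458 in HdR and 965 to 1591 in WT, and it was the single gene of its list of 5 sex-linked genes in the table. With the replicate block some calls in these lists changed: Myh1 and Myh4 of muscle, Col3a1 of fibroblasts and Scd1 of the sebaceous gland were then lower, and Dcn of fibroblasts and Elovl3 of the sebaceous gland higher, with limma adjusted p between 0.00151 (Myh4) and 0.0322 (Dcn). With the length trend removed 3 muscle and 5 macrophage markers were higher, and Tnni2 (limma adjusted p = 0.0526), Tnnt3 (0.0785), C1qa (0.0796), Col1a2 (0.243), Soat1 (0.0504), Col9a1 (0.115) and Col11a1 (0.0583) were among those that lost their calls. Cnmd was then lower, and Dcn and the cartilage gene Hapln1 higher (limma adjusted p = 0.0432, 0.0445 and 0.0263).

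The genes whose profile over the 6 libraries came closest to that of the shaft keratins were found by the root mean square distance between centred log2 profiles. The 8 closest of 14135 other named genes were Vsig8 (distance 0.131), Krtap28-13 (0.140), Krt87 (0.144), LOC105243090 (0.219), Gabrp (0.232), Dsg4 (0.255), Krtap14 (0.270) and Krtap11-1 (0.277), where the median distance of all genes compared was 1.11. Vsig8, for example, had 0.942, 2.29 and 2.36 bases per Mb in HdR and 9.15, 12.1 and 12.4 in WT. Among the members themselves the distance to their own mean ran from 0.074 for Krt31 to 0.799 for Krt35, the member least like the rest.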

How the data were processed

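The deposited table holds coverage as whole numbers per gene, a signal that the authors did not scale between libraries. Of its nonzero values under 6000, 8.51% are multiples of 300, the bases of a pair of 150-base reads (1656 values equal 300). The values were therefore treated as aligned bases and not as reads, which no label or header states. Per the submitters' processing notes the build is GRCm38. No source names the aligner, counter, annotation or strandedness. The labels do not say that the samples of a genotype are separate mice, so p-values measure only the spread between these samples, which may be technical.

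Columns were scaled to bases per Mb with the TMM method, trimming 30% by log ratio and 5% by intensity. Genes had to reach 1 base per Mb in 3 or more libraries, which left 15049. Robust limma-trend (limma 3.58.1, R 4.3.3) compared HdR with WT on log2(value + 1), two-sided, and p-values were adjusted by Benjamini and Hochberg's method over these genes, with calls at an adjusted p under 0.05. The code was tested on simulated data. GENCODE M21 (GRCm38) gave positions of genes and lengths of their longest transcripts. Libraries of the same replicate number deviated together (r = 0.163, 0.416 and 0.366 for replicates 1, 2 and 3). Pairs of unlike number had r from -0.377 to 0.159, so replicate 1 hardly stood out. The replicate number was also fitted as a block, which changed no call on a hair shaft keratin. Other alternatives were other scalings, filters and pseudocounts, voom, removal of a smooth length trend (natural spline with 4 df) and leaving out each library.

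The members and gene lists were chosen with earlier results of these data known. Named genes are all members, up to 4 genes with the smallest p of each other list, the 8 nearest profiles and Rbck1. Krt39, Krt84, Wif1, Fst, Mmp9, Csf3r, Ly6g, Plin1 and Pparg were named after their values were seen. So were further genes marked as picked out and genes whose call an alternative changed.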

Additional observations from a re-analysis of the deposited data

How the results depend on the processing

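Each of the 10 hair shaft keratins kept its direction under every one of the 16 alternatives that could test it, with log2 changes from -4.43 to -0.90. The call was kept throughout for Krt31, Krt32, Krt33a, Krt33b, Krt35 and Krt36, and lost for Krt34 in 7, Krt81 in 4, Krt85 in 1 and Krt86 in 1. With each library left out, 6 to 10 members were called lower and their median ran from -2.29 to -1.82. Krt36 and Krt86 were not tested with a filter at 5 bases per Mb, and Krt85 could not be corrected for length. A pseudocount of 0.1 gave a median of -2.84 and voom with sample quality weights -3.26, each of which shrinks low values less by construction. The number of all genes called was 2144 without a filter, 8055 with voom, 2930 with the length trend removed, 427 to 6016 with a library left out and 6843 with the replicate block (4681 with the length trend removed as well). Beyond the genes named with it above, the block also turned Hr, Tgm3, Cdk1, Krtap19-1 and Krtap4-2 into calls, all lower in HdR, and it changed no other call in the lists. Regulators called lower numbered 5 without a filter, 4 with the length trend removed and 2 to 11 with a library left out. The causes of these shifts in calls were not tested. HdR replicate 1 held under 10 read pairs each for 7 members (0 to 7.44), so its values for them rest on few reads. Its total of 5264 Mb was the largest of the HdR libraries. Krt36 in HdR replicates 2 and 3 (7.14 and 6.79) and Krt86 in HdR replicate 2 (7.22) also held under 10 read pairs.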
